A study of Mus musculus with 24 samples.

Results

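The Hox genes of the mouse lie in 4 clusters, and H3K4me3 and H3K27me3 were followed along them in the supporting cells of the fetal gonad before and after sex determination. The members were chosen by name, as the genes whose symbol is Hoxa, Hoxb, Hoxc or Hoxd followed by a number. The rule used no measured value, though earlier results of these data were known. The rule names 39 symbols, of which 38 were described, 10 in the Hoxa cluster, 10 in the Hoxb cluster, 9 in the Hoxc cluster and 9 in the Hoxd cluster, and 1 was not analysed here. They were set beside the 21418 protein-coding genes of the autosomes, a background that contains them.

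The data were ChIP-seq peak lists from 24 samples, with H3 and both marks precipitated in 2 replicates of each of 4 cell populations. XY and XX progenitor cells, which can still become either supporting cell type, were sorted at E10.5 from embryos that carried the SF1-eGFP reporter, Sertoli cells were sorted at E13.5 from XY embryos with Sox9-CFP, and pregranulosa cells (granulosa cells in the labels) were sorted at E13.5 from XX embryos with TESM-CFP (TESMS-CFP in the study's methods). All embryos had a C57BL/6 x CD1 background, no group carried a mutation or received a treatment, and the sorted cells of many gonads were pooled, so that each population is what its reporter labels. There are 8 lists, 1 for each mark and population, with no spread between replicates, and no population was therefore tested against another. Per the series record each list came from both replicates, and the headers of the 4 progenitor lists name joined tags. The headers of the Sertoli lists do not, the pregranulosa lists have no header, and the study's methods describe peak calling for single replicates, so how replicates entered the 4 lists of E13.5 is not certain. A list says where a mark was called over the H3 control and not how strong it was.

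Hox genes encode homeodomain transcription factors that give cells of the trunk, limbs and urogenital tract their position along the body axis. Within a cluster they are numbered from group 1 to group 13 and transcribed in the same direction, and the groups are used in that order, with low groups active early and toward the head and high groups active late and toward the tail. H3K27me3 is laid down by Polycomb repressive complex 2 and is read by complexes that keep a gene silent, whereas H3K4me3 is laid down by Trithorax-type enzymes at promoters that are active or open to activation. A promoter with both marks is called bivalent, and Hox clusters are the classical example of chromatin held by both systems. In a pool of sorted cells both marks may sit on the same nucleosome or in different cells.

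The DNA that carries these patterns is shown first. For each cluster the 2 RefSeq start sites closest to the point where the H3K27me3 region over group 9 ended in both progenitor lists are given, the inner one on the group 13 side and the outer one on the group 1 side. In the Hoxc cluster the table held only an outer one, that of Hoxc4. Each sequence runs from 250 bases before to 50 bases after a RefSeq start, was found unchanged on mm9 on the strand of the gene, and has its CpG dinucleotides (C followed by G, the base pair step that marks CpG-rich promoters) in capitals. In the progenitor lists the inner sequences (Hoxa9, Hoxb8 and Hoxd9) lay inside H3K27me3 over all 300 bases. Of the outer sequences, those of Hoxa7, Hoxb4 and Hoxc4 had no base of H3K27me3 in either progenitor list, and that of Hoxd8 had 0 bases in XY and 70 bases in XX progenitor cells. All 7 lay in H3K4me3 over their full length in both progenitor lists.
Hoxa9 promoter (inner, chr6:52177320-52177619, minus strand, mm9): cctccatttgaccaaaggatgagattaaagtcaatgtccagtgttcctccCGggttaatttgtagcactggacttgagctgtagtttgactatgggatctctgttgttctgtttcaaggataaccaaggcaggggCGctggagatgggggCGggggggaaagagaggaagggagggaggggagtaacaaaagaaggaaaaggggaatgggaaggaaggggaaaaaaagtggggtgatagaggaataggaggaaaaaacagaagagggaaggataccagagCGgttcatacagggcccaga
Hoxa7 promoter (outer, chr6:52168523-52168822, minus strand, mm9): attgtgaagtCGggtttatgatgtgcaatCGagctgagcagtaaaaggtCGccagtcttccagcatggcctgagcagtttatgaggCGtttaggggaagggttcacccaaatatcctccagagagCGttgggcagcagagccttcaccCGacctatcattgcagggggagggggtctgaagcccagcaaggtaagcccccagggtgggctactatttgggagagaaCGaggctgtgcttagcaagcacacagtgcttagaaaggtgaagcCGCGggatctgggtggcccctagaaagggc
Hoxb8 promoter (inner, chr11:96142969-96143268, plus strand, mm9): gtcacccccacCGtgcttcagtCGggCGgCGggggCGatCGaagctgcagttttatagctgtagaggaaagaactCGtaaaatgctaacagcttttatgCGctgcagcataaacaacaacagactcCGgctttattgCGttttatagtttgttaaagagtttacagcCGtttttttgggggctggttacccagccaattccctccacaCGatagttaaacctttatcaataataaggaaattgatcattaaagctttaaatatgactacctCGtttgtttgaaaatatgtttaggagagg
Hoxb4 promoter (outer, chr11:96179331-96179630, plus strand, mm9): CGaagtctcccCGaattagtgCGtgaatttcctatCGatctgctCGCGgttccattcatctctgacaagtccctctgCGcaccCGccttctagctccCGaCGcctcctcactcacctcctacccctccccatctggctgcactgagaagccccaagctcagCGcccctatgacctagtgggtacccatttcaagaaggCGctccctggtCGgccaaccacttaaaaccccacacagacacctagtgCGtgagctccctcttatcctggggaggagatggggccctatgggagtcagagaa
Hoxc4 promoter (outer, chr15:102864576-102864875, plus strand, mm9): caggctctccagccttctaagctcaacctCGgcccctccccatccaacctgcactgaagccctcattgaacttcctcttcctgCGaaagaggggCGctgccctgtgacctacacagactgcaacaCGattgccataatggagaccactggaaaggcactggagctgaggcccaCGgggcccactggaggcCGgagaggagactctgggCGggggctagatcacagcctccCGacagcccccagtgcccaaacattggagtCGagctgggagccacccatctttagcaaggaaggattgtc
Hoxd9 promoter (inner, chr2:74535570-74535869, plus strand, mm9): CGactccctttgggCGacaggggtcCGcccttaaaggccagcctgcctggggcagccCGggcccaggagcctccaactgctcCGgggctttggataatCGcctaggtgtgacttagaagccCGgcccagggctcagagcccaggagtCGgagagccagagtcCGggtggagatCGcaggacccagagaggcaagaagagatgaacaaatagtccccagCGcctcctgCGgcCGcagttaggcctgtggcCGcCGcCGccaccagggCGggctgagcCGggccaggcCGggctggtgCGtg
Hoxd8 promoter (outer, chr2:74542422-74542721, plus strand, mm9): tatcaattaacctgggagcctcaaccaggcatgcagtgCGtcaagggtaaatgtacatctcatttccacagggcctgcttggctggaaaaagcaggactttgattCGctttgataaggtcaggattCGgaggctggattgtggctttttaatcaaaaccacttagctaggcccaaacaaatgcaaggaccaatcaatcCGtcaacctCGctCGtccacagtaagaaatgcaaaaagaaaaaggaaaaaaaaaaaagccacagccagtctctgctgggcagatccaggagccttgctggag

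The CpG counts of the 7 sequences ran from 4 in Hoxa9 to 20 in Hoxd9. A CpG was present in 94.6% of the 32851 promoter sequences of the same length in the RefSeq table, with a median of 7, and the 24 sequences of 22 members had between 4 and 45, with a median of 14.5. The RefSeq starts are not always those of the annotation used for the windows below. The start of Hoxc4 lay 15459 bp further along the gene, that of Hoxa9 3719 bp, that of Hoxa7 3281 bp and that of Hoxb4 1583 bp.

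The study used Hoxd13, the last gene of the Hoxd cluster, as a positive control target in its ChIP-qPCR of CBX2, a Polycomb protein that binds H3K27me3. The primers, in capitals below, bounded 199 bases of coding sequence in a Hoxd13 exon, starting 361 bp after the annotated start. All 199 bases lay in H3K27me3 in the 4 lists. H3K4me3 covered 0 of them in XY progenitor cells and all 199 in XX progenitor, Sertoli and pregranulosa cells.
Hoxd13 amplicon (chr2:74506728-74506926, plus strand, mm9): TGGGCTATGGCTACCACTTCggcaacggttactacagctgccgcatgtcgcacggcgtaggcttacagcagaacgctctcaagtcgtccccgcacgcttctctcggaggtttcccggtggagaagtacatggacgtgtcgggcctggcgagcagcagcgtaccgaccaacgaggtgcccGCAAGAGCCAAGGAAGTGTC

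The clusters also hold genes of microRNAs, short RNAs that pair with messenger RNAs through a seed at bases 2 to 8, shown in capitals. Mir10a of the Hoxb cluster and Mir10b of the Hoxd cluster give 5p products that share the seed ACCCUGU, and the 3 Mir196 genes, in the Hoxa, Hoxb and Hoxc clusters, give 5p products that share AGGUAGU. Mir615 lies in the Hoxc cluster and has a seed of its own. Their sequences are shown because these seed families lay on different sides of the progenitor H3K27me3 boundaries described below.
miR-10a-5p (chr11:96178500-96178522, plus strand, mm9): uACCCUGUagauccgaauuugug
miR-10b-5p (chr2:74564131-74564153, plus strand, mm9): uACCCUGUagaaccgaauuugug
miR-196a-5p (chr11:96126501-96126522, plus strand and chr15:102803796-102803817, plus strand, mm9): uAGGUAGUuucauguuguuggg
miR-196b-5p (chr6:52180128-52180149, minus strand, mm9): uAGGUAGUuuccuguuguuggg
miR-615-3p (chr15:102845400-102845421, plus strand, mm9): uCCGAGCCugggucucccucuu

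A promoter was the window from 2 kb before to 2 kb after the annotated start of a gene (4001 bp), and it counted as marked if 1 or more of its bases lay in a region. At E10.5 H3K27me3 marked 26 of the 38 Hox promoters in the XY population and 24 in the XX population, where it marked 23.6% and 22.8% of all genes. It marked all 38 in Sertoli cells and 35 in pregranulosa cells, where the background was 24.2% and 22.1%. The share of Hox promoters with H3K27me3 was therefore larger at E13.5 than at E10.5, while that of all genes stayed between 22.1% and 24.2%. H3K4me3 marked 36, 37, 33 and 35 Hox promoters in XY progenitor, XX progenitor, Sertoli and pregranulosa cells, beside 64.8%, 66.7%, 65.5% and 67.0% of all genes.

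Bivalent promoters made up 24 of the 38 in XY progenitor cells, where 20.9% of all genes were bivalent, and 23 in XX progenitor cells, where 21.4% were. In Sertoli cells 33 were bivalent beside 19.2% of all genes, and in pregranulosa cells 32 beside 19.6%. Hoxc4 counted among the 33 of Sertoli cells on 3 bp of H3K4me3 at its annotated start. All 300 bases of its RefSeq promoter sequence lay in both marks in that list. H3K4me3 alone was found at 12 Hox promoters in XY progenitors (43.9% of all genes), 14 in XX progenitors (45.3%), 0 in Sertoli cells (46.3%) and 3 in pregranulosa cells (47.5%). Those with H3K27me3 alone numbered 2 (2.76% of all genes), 1 (1.48%), 5 (4.99%) and 3 (2.49%) in the same order. No Hox promoter lacked both marks in any of the 4 populations.

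**Figure D1:**
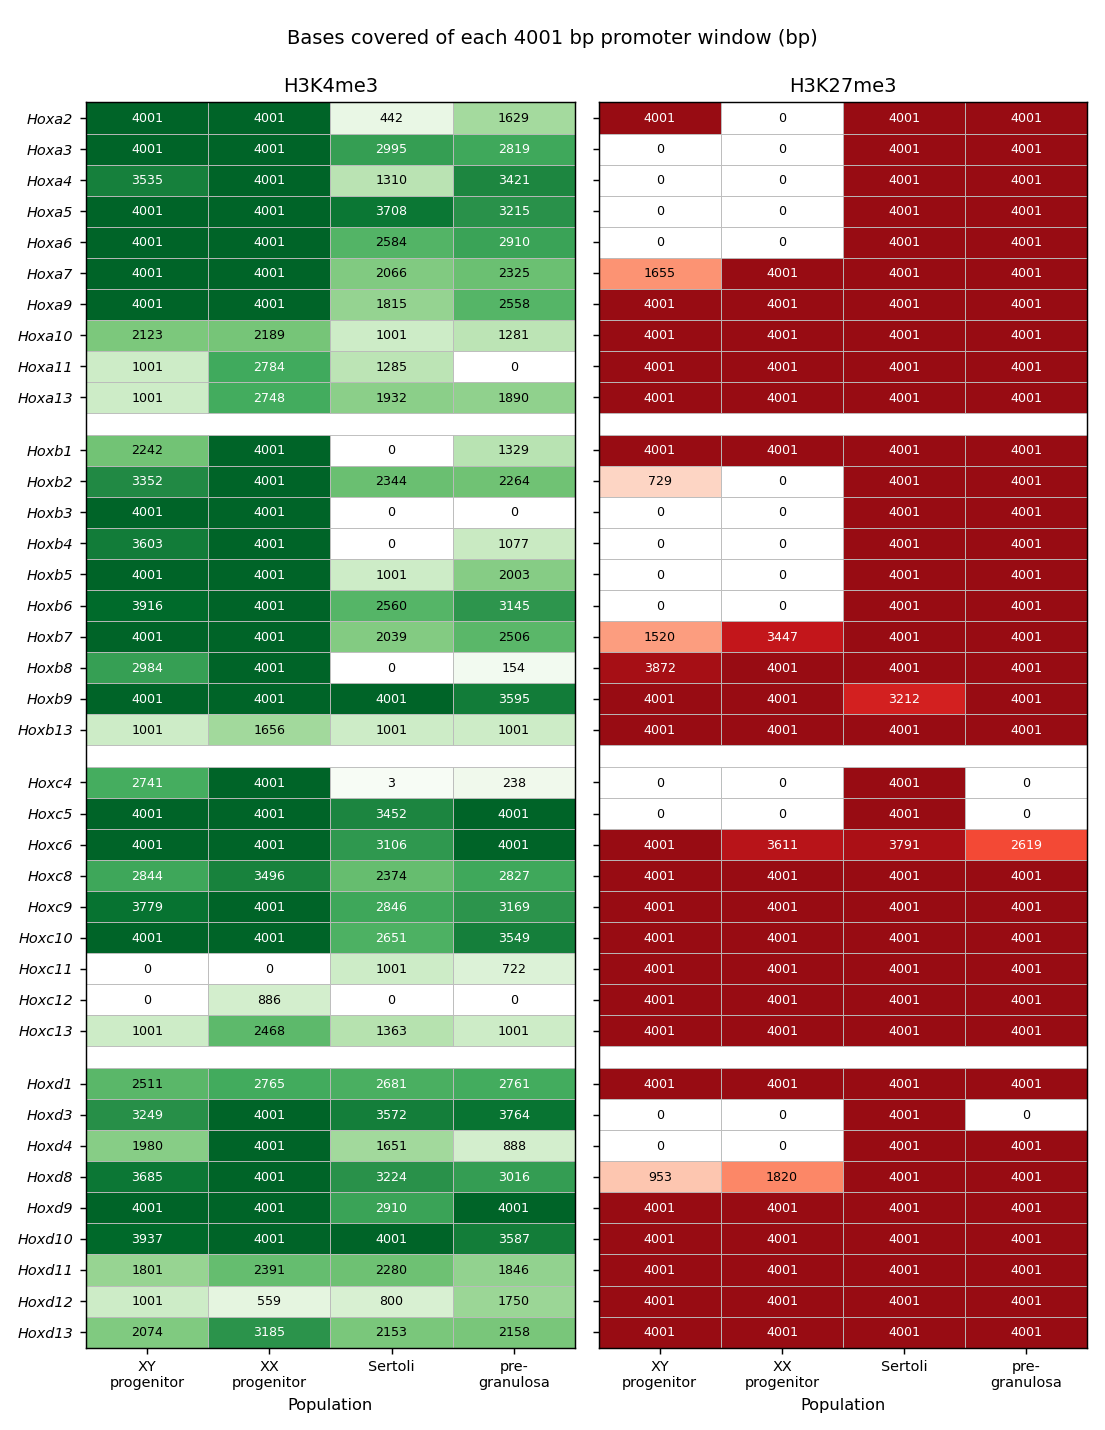
Bases of the 4001 bp promoter window of each of the 38 Hox genes (rows, by cluster and paralog group) that lay in H3K4me3 (left) or H3K27me3 (right) regions of each population (columns), with darker colour for more bases. H3K27me3 cells of groups 3 to 6 are white (0 bp) in both progenitor lists except Hoxc6, and in Sertoli cells every cell holds at least 3212 bp.

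H3K27me3 was mostly present over a whole window or absent from it. It covered the whole window of 21 members in XY and 21 in XX progenitor cells (15.0% and 16.3% of all genes), 36 members in Sertoli cells (17.3%) and 34 in pregranulosa cells (16.3%). In all 4 lists H3K27me3 was called at 24 members, beside 16.3% of all genes. Among groups 9 to 13 it covered the whole window of 16 of 16 members in XY progenitor, XX progenitor and pregranulosa cells and of 15 in Sertoli cells, and Hoxa13, Hoxb13, Hoxc13 and Hoxd13, which act in the hindmost part of the body, had 4001 bp in each list. Hoxc8 of group 8 and, at the other end of their clusters, Hoxb1 and Hoxd1 had 4001 bp in each list as well. The exception in groups 9 to 13 was Hoxb9, which had 4001 bp in XY progenitor, XX progenitor and pregranulosa cells and 3212 bp in Sertoli cells.

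The calls at E10.5 differed between groups, most clearly between groups 4 to 6 and groups 7 to 13. The annotated starts of Hoxa3 and Hoxd3 lie among higher groups, between Hoxa7 and Hoxa6 and between Hoxd8 and Hoxd4. H3K27me3 was called at 16 of 16 members of groups 9 to 13 and at 5 of 5 members of groups 7 and 8 in both progenitor lists. It was called at 1 of 10 members of groups 4 to 6 in both lists, and that member was Hoxc6. In groups 1 to 3 it was called at 4 of 7 members in XY and 2 of 7 in XX progenitor cells. At E13.5 the same groups had 7 of 7, 10 of 10, 5 of 5 and 16 of 16 members called in Sertoli cells, and 6 of 7, 8 of 10, 5 of 5 and 16 of 16 in pregranulosa cells, counted from groups 1 to 3 upward.

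Along the DNA this appeared as an edge. Positions are given as distances from the group 13 end of a cluster toward group 1, and an edge is where the H3K27me3 region that covers the group 9 gene stopped. In the Hoxa cluster (chr6:52112350-52210874 on mm9, genes on the minus strand) the edge lay at 38.7 kb in XY and 41.4 kb in XX progenitor cells, close to the start of Hoxa7 at 39.0 kb. In the Hoxb cluster (chr11:96055630-96229570) it lay at 89.5 kb and 91.4 kb, close to the start of Hoxb7 at 89.9 kb. In the Hoxc cluster (chr15:102751534-102867274) it lay at 79.6 kb and 78.8 kb, past the start of Hoxc6 at 77.2 kb. In the Hoxd cluster (chr2:74506367-74603200) it lay at 35.3 kb and 36.1 kb, just before the start of Hoxd8 at 36.3 kb.

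The progenitor edges of the XX list thus differed from those of the XY list by 2.69 kb in Hoxa, 1.93 kb in Hoxb, 0.818 kb in Hoxc and 0.867 kb in Hoxd. Each difference is smaller than the 5000 bp peak size with which H3K27me3 was called. The XY list rested on 6470151 H3K27me3 tags and the XX list on 33185400, so the edges lay within 2.69 kb of each other in lists of unequal depth.

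**Figure D2:**
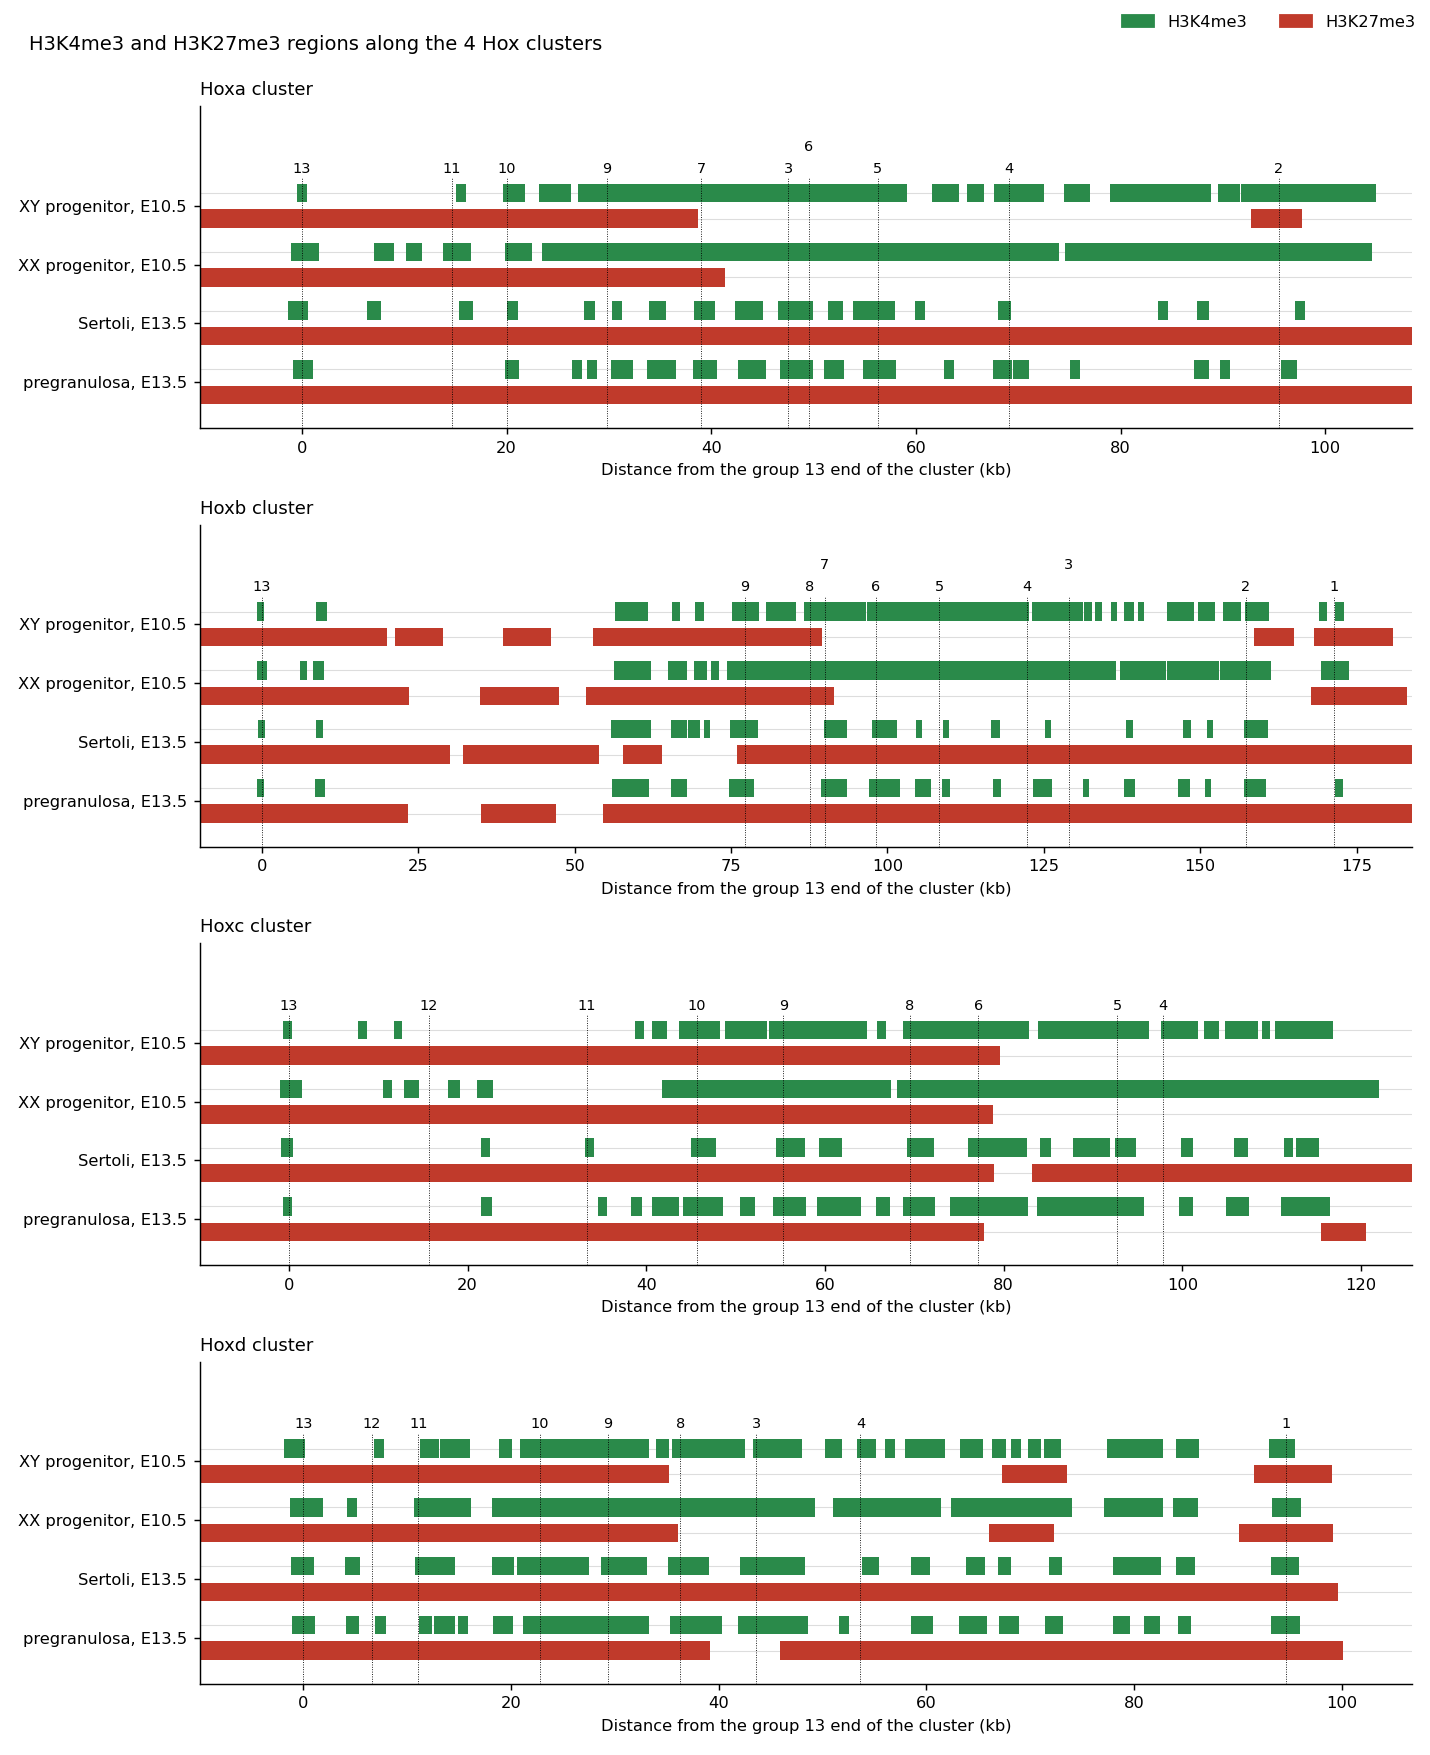
H3K4me3 (green) and H3K27me3 (red) regions along the Hoxa, Hoxb, Hoxc and Hoxd clusters in the 4 populations, with the distance from the group 13 end in kb on the horizontal axis and dotted lines at the annotated start of each member, labelled with its group number. Red covers the starts of groups 9 to 13 in every row, ends in both E10.5 rows near groups 6 to 8, and reaches the group 1 side of Hoxa, Hoxb and Hoxd at E13.5.

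In the Hoxa cluster the stretch beyond the edge held no H3K27me3 in XX progenitor cells, from 41.4 kb to the end of the cluster at 98.5 kb, and the starts of Hoxa2, Hoxa3, Hoxa4, Hoxa5 and Hoxa6 lay in it. In XY progenitor cells a separate region of 5.00 kb, from 92.7 kb to 97.7 kb, covered the Hoxa2 window over its full 4001 bp. This region is no wider than a single peak at the 5000 bp peak size, in the H3K27me3 list with the fewest tags of those with a known depth. Hoxa2, a gene of hindbrain patterning, had 0 bp in XX progenitor cells. Hoxa7 had 1655 bp of H3K27me3 in XY and 4001 bp in XX progenitor cells, since the edge passed through its window in the XY list. At E13.5 a single H3K27me3 region covered the whole cluster, 192 kb wide in Sertoli cells and 194 kb in pregranulosa cells. By width it ranked 4 among the autosomal H3K27me3 regions of Sertoli cells and 2 among those of pregranulosa cells, against 47 and 35 for the Hoxa region of XY and XX progenitor cells.

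In the Hoxb cluster the progenitor stretch without H3K27me3 ran from 89.5 kb to 159 kb in XY and from 91.4 kb to 168 kb in XX cells and held the starts of Hoxb2 to Hoxb6, and in XY cells that of Hoxb7. A separate region at the group 1 end, 12.7 kb wide in XY and 15.5 kb in XX cells, covered the whole window of Hoxb1, a gene of hindbrain patterning, in both lists. A further region of 6.47 kb in the XY list reached into the Hoxb2 window by 729 bp. The long interval between Hoxb13 and Hoxb9 held further gaps in each list, without the start of any member. At E13.5 H3K27me3 covered the cluster from 75.9 kb in Sertoli and from 54.6 kb in pregranulosa cells to beyond its group 1 end, in regions of 117 kb and 138 kb. Gaps of 3.80 kb and 12.0 kb near Hoxb9, at 53.9 to 57.7 kb and 64.0 to 75.9 kb, were found in Sertoli cells.

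Of the 4 clusters, Hoxc differed most between Sertoli and pregranulosa cells in H3K27me3 cover, with 96.3% and 67.4%. Both progenitor lists had no H3K27me3 from the edge to the group 4 end, a stretch of 36.2 kb in XY and 37.0 kb in XX cells with the starts of Hoxc5 and Hoxc4. In Sertoli cells the gap was 4.26 kb, from 78.9 kb to 83.2 kb, and a region of 43.6 kb covered the windows of Hoxc4 and Hoxc5 in full. In pregranulosa cells the gap was 37.7 kb, from 77.8 kb to 116 kb, and both genes had 0 bp, as in the progenitor lists. Hoxc6 lay at the edge, with 4001, 3611, 3791 and 2619 bp of H3K27me3 in XY progenitor, XX progenitor, Sertoli and pregranulosa cells.

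In the Hoxd cluster the progenitor stretch beyond the edge was interrupted by a region of 6.31 kb in XY (67.3 to 73.6 kb) and 6.26 kb in XX cells (66.0 to 72.3 kb), which reached no member's window, and by a region at the group 1 end that covered the whole window of Hoxd1. Hoxd3, Hoxd4 and Hoxd8 started in the gap between the edge and that first region. The Hoxd8 window still held 953 bp of H3K27me3 in XY and 1820 bp in XX cells. In Sertoli cells 1 region of 130.2 kb covered the whole cluster. In pregranulosa cells a gap of 6.71 kb remained from 39.2 kb to 45.9 kb, 77.7% of which lay in H3K4me3, and Hoxd3 started inside it with 0 bp of H3K27me3.

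Summed over the 4 clusters, 485 kb in all, H3K27me3 covered 52.4% in XY and 51.8% in XX progenitors, against 95.4% in Sertoli and 86.9% in pregranulosa cells. H3K4me3 covered 58.3%, 71.1%, 30.2% and 37.2% in the same order. Counting each cluster in each sex, the cover of H3K4me3 was smaller at E13.5 in 8 of 8 cases and that of H3K27me3 was larger in 7 of 8. The exception was Hoxc in XX cells, where H3K27me3 covered 68.1% at E10.5 and 67.4% at E13.5. The H3K27me3 lists also covered more of the autosomes at E13.5, with 156 Mb in Sertoli against 89.7 Mb in XY progenitor cells. In XX cells they covered 129.8 Mb in pregranulosa against 82.2 Mb in progenitor cells. Larger H3K27me3 cover at E13.5 was therefore not limited to the clusters. Whether the clusters differed in this from the rest of the autosomes was not tested.

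**Figure D3:**
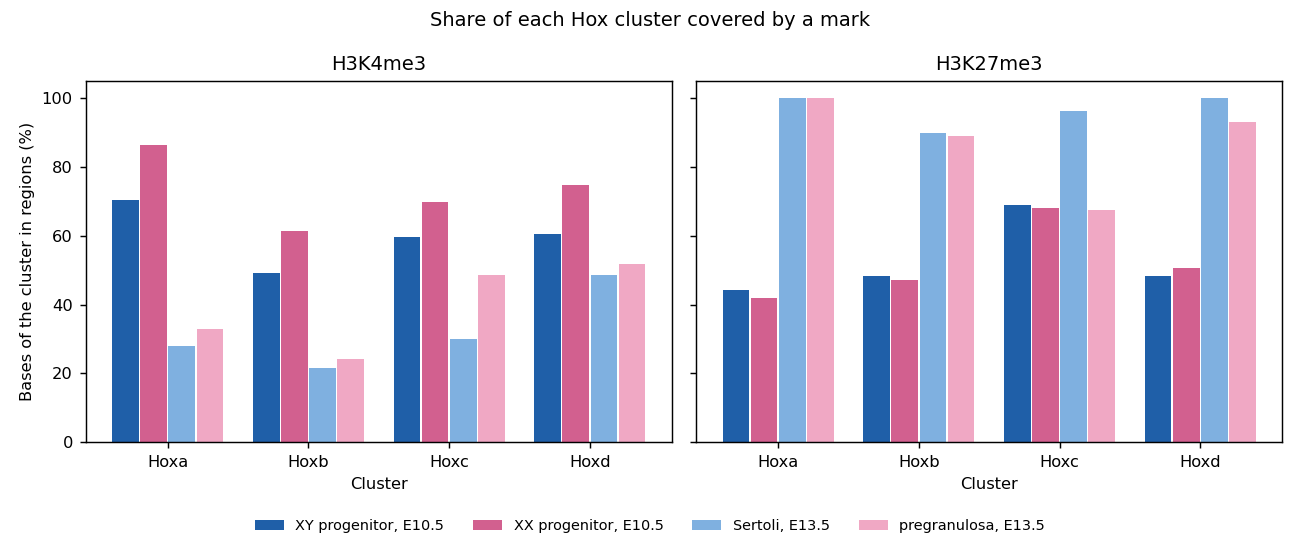
Percent of the bases of each Hox cluster (groups of bars) that lay in H3K4me3 (left) or H3K27me3 (right) regions in the 4 populations (bar colours), from the 1 list of each mark and population, so that no error bar can be drawn. H3K4me3 bars of Hoxa stand at 70.4% and 86.3% at E10.5 and at 27.8% and 32.8% at E13.5, while H3K27me3 bars of Hoxa stand at 44.3% and 42.0% and then at 100% in both.

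The profiles served to compare both marks between the stages and between the sexes, beside the study's main question on the Polycomb protein CBX2. From XY progenitor to Sertoli cells, 12 members had H3K27me3 in Sertoli cells alone, beside 5.87% of all genes, and 0 had it in XY progenitor cells alone, beside 5.29%. The 12 were Hoxa3, Hoxa4, Hoxa5, Hoxa6, Hoxb3, Hoxb4, Hoxb5, Hoxb6, Hoxc4, Hoxc5, Hoxd3 and Hoxd4, and each had 0 bp in XY progenitor and 4001 bp in Sertoli cells. From XX progenitor to pregranulosa cells, 11 members had H3K27me3 in pregranulosa cells alone, beside 3.42% of all genes, and 0 in XX progenitor cells alone, beside 4.22%. These were Hoxa2, Hoxa3, Hoxa4, Hoxa5, Hoxa6, Hoxb2, Hoxb3, Hoxb4, Hoxb5, Hoxb6 and Hoxd4, all with 0 bp before and 4001 bp after.

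The Sertoli list was made from 44446456 H3K27me3 tags against 6470151 in XY progenitor cells and covered 156 Mb of the autosomes against 89.7 Mb. The depth of the pregranulosa list is unknown, and it covered 129.8 Mb against 82.2 Mb in XX progenitor cells. Every H3K27me3 list was also reduced to its widest regions covering the same number of bases. Then 12 members had H3K27me3 in Sertoli and not in XY progenitor cells, and 12 had it in pregranulosa and not in XX progenitor cells. This reduction keeps wide regions, such as those of the Hox clusters at E13.5, and adds no call to a shallow list. It therefore cannot show the part of depth, which was not tested.

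Between the sexes at E10.5, 0 members had H3K27me3 in XX progenitor cells alone (1.55% of all genes). In XY progenitor cells alone 2 had it, Hoxa2 and Hoxb2 (2.33%). The Hoxa2 call rested on a region no wider than a single peak, and that of Hoxb2 on 729 bp. At E13.5, 3 members had it in Sertoli cells alone (5.11%), namely Hoxc4, Hoxc5 and Hoxd3, and 0 in pregranulosa cells alone (2.96%). These 3 genes had the mark neither in XY nor in XX progenitor cells. With a window at any annotated transcript start of a gene, the count in Sertoli cells alone was 2. The Hoxd3 call was taken at the first of its 6 annotated starts. From 45.9 kb on, the rest of that gene lay in H3K27me3 in pregranulosa cells, so the difference at Hoxd3 holds for that start.

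In the Hoxa, Hoxb and Hoxc clusters the widest H3K4me3 region was wider in both lists of E10.5 than in both lists of E13.5. The number of H3K4me3 regions over the 4 clusters was 75 in XY progenitor, 35 in XX progenitor, 67 in Sertoli and 71 in pregranulosa cells, so the XY progenitor list held wide regions beside many short ones. The widest H3K4me3 region of the Hoxa cluster measured 32.1 kb in XY progenitor, 50.6 kb in XX progenitor, 4.16 kb in Sertoli and 3.23 kb in pregranulosa cells. In the Hoxb cluster the widths were 26.0, 62.3, 6.45 and 5.98 kb, and in the Hoxc cluster they were 14.1, 54.0, 5.16 and 12.0 kb. In the Hoxd cluster they were 6991, 31144, 7002 and 6712 bp, so the widest region of XY progenitor cells was no wider there than that of Sertoli cells.

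The Hoxa stretch ran from 27002 bp to 59138 bp in XY and from 23.5 kb to 74.0 kb in XX progenitor cells, and so over the starts of Hoxa9, Hoxa7, Hoxa3, Hoxa6 and Hoxa5 in both. The Hoxb stretch of XX progenitor cells ran from 74.3 kb to 137 kb, over the starts of all members from Hoxb9 to Hoxb3. The Hoxc stretch of XX progenitor cells ran from 68.0 kb to 122 kb, over Hoxc8, Hoxc6, Hoxc5 and Hoxc4 and past the end of the cluster. Each of these stretches crossed the H3K27me3 edge of its cluster.

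By width these regions stood near the top of their lists. Of the 10 widest autosomal H3K4me3 regions, 6 overlapped a Hox cluster in XX progenitor cells, at ranks 2 to 6 and 8, and 2 did in XY progenitor cells, at ranks 2 and 3. In both lists the widest region lay on chromosome 8, outside the clusters, with 77.8 kb in XY and 87.7 kb in XX cells. In Sertoli and pregranulosa cells 0 of the 10 widest lay in a Hox cluster, and the widest Hox region ranked 256 in Sertoli cells (7002 bp, Hoxd) and 31 in pregranulosa cells (12.0 kb, Hoxc). The XY progenitor list had the fewest H3K4me3 tags of the 3 with a known depth, 10162534 against 49254553 in XX progenitor and 31104760 in Sertoli cells. The part of depth in these widths was not tested.

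**Figure D4:**
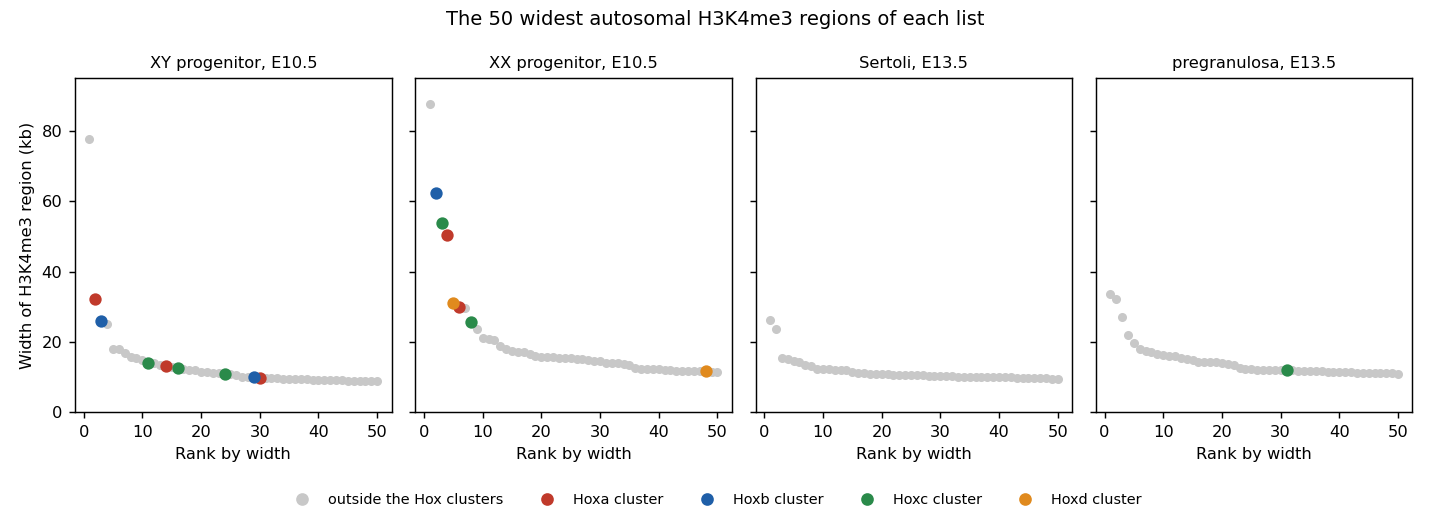
Width in kb of the 50 widest autosomal H3K4me3 regions of each population against their rank, with regions that overlap the Hoxa, Hoxb, Hoxc or Hoxd cluster in colour and all others in grey. In XX progenitor cells 6 coloured points of 25.7 to 62.3 kb lie among the first 10 ranks and in XY progenitor cells 2 do, while the panel of Sertoli cells holds no coloured point and that of pregranulosa cells holds 1, at rank 31.

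The same difference was seen in the windows. At E10.5 H3K4me3 covered the whole window of 14 members in XY progenitors (1.36% of all genes) and 26 in XX progenitors (4.16%). At E13.5 it did so at 2 members in Sertoli cells (2.60%) and at 3 in pregranulosa cells (3.95%). The 2 of Sertoli cells were Hoxb9 and Hoxd10, and the 3 of pregranulosa cells were Hoxc5, Hoxc6 and Hoxd9. The median cover over the members was 3569 bp in XY progenitor, 4001 bp in XX progenitor, 2052.5 bp in Sertoli and 2294.5 bp in pregranulosa cells, beside 1563.5, 2281, 1919 and 2182 bp over all genes.

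From XY progenitor to Sertoli cells H3K4me3 cover was smaller at 26 members and larger at 9, whereas it was smaller at 19.8% of all genes and larger at 46.3%. From XX progenitor to pregranulosa cells it was smaller at 33 members and larger at 2, beside 36.2% smaller and 29.5% larger among all genes. Hoxb4, which is known for its use in expanding blood stem cells, is an example. At its annotated start it had 3603 bp in XY progenitor, 4001 bp in XX progenitor, 0 bp in Sertoli and 1077 bp in pregranulosa cells. The 0 bp holds for that start. A window of the same size at its RefSeq start, 1583 bp further along, takes in part of a 1001 bp Sertoli region at 125 to 126 kb. Hoxb3 had 4001 bp in both progenitor lists and 0 bp in both lists of E13.5.

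Most members kept a call. H3K4me3 was called in all 4 lists at 31 of 38 members, beside 62.5% of all genes. Some of these calls rested on few bases, as at Hoxa2 with 442 bp in Sertoli cells. Hoxc4 had 3 bp in Sertoli and 238 bp in pregranulosa cells at its annotated start. At its RefSeq start, 15459 bp further along, all 300 bases of the promoter sequence lay in H3K4me3 in each list. The Hox promoters with H3K4me3 in XY progenitor cells and not in Sertoli cells were Hoxb1, Hoxb3, Hoxb4 and Hoxb8, 4 members beside 2.10% of all genes. For Hoxb4 this holds at the annotated start and not at the RefSeq start. Of the members, 1, Hoxc11, had it in Sertoli cells alone, beside 2.80%. Hoxa11, Hoxb3 and Hoxc12 had it in XX progenitor and not in pregranulosa cells, 3 members beside 1.44%, and Hoxc11 alone had it in pregranulosa and not in XX progenitor cells, beside 1.78%.

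Between the sexes the H3K4me3 calls differed at few members. At E10.5 the call of Hoxc12 was in XX progenitor cells alone, 1 member beside 2.85%, and 0 members had it in XY progenitor cells alone, beside 0.976%. At E13.5 the call of Hoxa11, a gene of limb and uterus development, was in Sertoli cells alone (1 member beside 1.06%). Those of Hoxb1, Hoxb4 and Hoxb8 were in pregranulosa cells alone (3 members beside 2.57%). That of Hoxb4 holds for the annotated start, since a window at its RefSeq start reaches H3K4me3 in Sertoli cells. Hoxa11 had 1001, 2784, 1285 and 0 bp in XY progenitor, XX progenitor, Sertoli and pregranulosa cells. Hoxb8 had 2984, 4001, 0 and 154 bp, so its pregranulosa call rested on 154 bp.

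Hoxc11 and Hoxc12 had at most 1001 bp of H3K4me3 in each list. Hoxc11 had 0, 0, 1001 and 722 bp and Hoxc12 had 0, 886, 0 and 0 bp in the order used above, and both lay wholly inside H3K27me3. Hoxc13, a gene of hair and nail formation, had 1001, 2468, 1363 and 1001 bp. By contrast Hoxc10 of the same cluster had 4001, 4001, 2651 and 3549 bp. Hoxd10, its counterpart in the Hoxd cluster, had 3937, 4001, 4001 and 3587 bp of H3K4me3 and 4001 bp of H3K27me3 in each list, and so was bivalent over nearly the whole window in the 4 populations.

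The posterior genes of the Hoxa cluster pattern the ducts of the reproductive tract, Hoxa9 the oviduct, Hoxa10 and Hoxa11 the uterus and Hoxa13 the vagina. All of them had 4001 bp of H3K27me3 in each list. Hoxa9 had 4001, 4001, 1815 and 2558 bp of H3K4me3 and Hoxa10 had 2123, 2189, 1001 and 1281 bp, both with more in the progenitor lists than at E13.5. Hoxa13 had 1001, 2748, 1932 and 1890 bp, so it had more H3K4me3 at E13.5 in XY and less in XX cells.

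Both marks overlapped along the clusters at E10.5. In the XY progenitor list the Hoxa bases in H3K27me3 include the region of 5.00 kb over the Hoxa2 window, at the end away from group 13. Of the Hoxa bases in H3K27me3, 53.6% also lay in H3K4me3 in XY and 68.8% in XX progenitor cells. In Sertoli and pregranulosa cells 27.8% and 32.8% did. There H3K27me3 covered the whole Hoxa cluster, so these E13.5 values are its H3K4me3 cover by construction. Outside H3K27me3, 83.8% of the Hoxa bases in XY and 99.1% in XX progenitor cells lay in H3K4me3, and in the Hoxc cluster 87.8% and 100% did. In the Hoxb cluster the overlap was the smallest at each population, from 18.3% of the H3K27me3 bases in Sertoli cells to 45.9% in XX progenitor cells. In the Hoxd cluster it ran from 48.5% in Sertoli cells, where H3K27me3 again covered the whole cluster, to 71.9% in XX progenitor cells.

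The microRNA genes within the clusters lay on either side of the same edges. Several of their windows overlap those of neighbouring members, so their calls are not separate evidence of the edges. The windows of Mir10a, next to Hoxb4, and Mir10b, next to Hoxd4, had 0 bp of H3K27me3 in both progenitor lists and 4001 bp in both E13.5 lists. Those of Mir196b, next to Hoxa9, and Mir196a-2, in the Hoxc cluster, had 4001 bp in all 4 lists. The window of Mir196a-1, in the Hoxb cluster, had 4001 bp in both progenitor lists and in pregranulosa cells and 0 bp in Sertoli cells, where it fell in the 12.0 kb gap. The window of Mir615 had 0 bp in both progenitor lists and in pregranulosa cells and 4001 bp in Sertoli cells, like those of Hoxc4 and Hoxc5 around it.

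The nearest protein-coding genes outside the clusters were measured in the same way. Evx1 and Evx2, homeobox genes beside Hoxa13 and Hoxd13, had 4001 bp of H3K27me3 in all 4 lists. Negative distances lie outside a cluster on its group 13 side. Evx2 starts at -8.45 kb from Hoxd, inside the H3K27me3 region that covers Hoxd13 in each list. Evx1 starts at -52.6 kb from Hoxa, inside the region of the cluster in both lists of E13.5. In XY and XX progenitor cells the region of the cluster reached only to -21.5 kb and -23.0 kb, and Evx1 lay in another region. On the other side of Hoxa, Skap2 starts 248 kb from the group 13 end, beyond the Hoxa region, which stopped at 119 kb in both lists of E13.5, and it had 0 bp in both progenitor lists, 2375 bp in Sertoli and 3572 bp in pregranulosa cells. Mtx2, at 157 kb in the direction of Hoxd1 and outside the Hoxd regions, had 0 bp in the 4 lists and between 2100 and 2455 bp of H3K4me3. Beside Hoxb, Ttll6 had 3349 bp of H3K27me3 in XY progenitor cells and 4001 bp in the other lists, and Skap1 had 4001 bp in each. Beside Hoxc, Gm17649 had 4001 bp in each list. Smug1, at 237 kb on the other side of Hoxc, had 0 bp in both progenitor lists, 3732 bp in Sertoli and 2793 bp in pregranulosa cells.

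The relatives of the Hox genes outside the clusters stood at the other extremes. Of 9 ParaHox and linked homeobox genes (Cdx1, Cdx2, Cdx4, Gsx1, Gsx2, Pdx1, Evx1, Evx2 and Mnx1), all 9 had their whole window in H3K27me3 in the 4 lists. H3K4me3 was called at 6 of the 9 in XY progenitor cells and at 8 in each of the other lists. Of 8 genes for TALE homeodomain proteins, which bind DNA together with Hox proteins (Pbx2, Pbx3, Pbx4, Meis1, Meis2, Meis3, Pknox1 and Pknox2), all 8 had H3K4me3 in each list. H3K27me3 was called at 0 of the 8 in XY and XX progenitor cells, at Meis2, Meis3 and Pknox2 in Sertoli cells and at Meis2 in pregranulosa cells. Meis1 had 4001 bp of H3K4me3 and 0 bp of H3K27me3 in all 4 lists.

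The windows were also compared in base composition, which the lists do not contain. The 38 Hox windows held a median of 139 CpG, from 31 in Hoxc4 to 259 in Hoxd8, and the windows of all genes a median of 86. The 24 members with H3K27me3 in both progenitor lists had a median of 152 (range 99 to 259), and the 12 with H3K27me3 in neither had a median of 120 (range 31 to 227), so the ranges overlapped. The 3 lowest counts among the members were those of Hoxc4 (31), Hoxb3 (45) and Hoxd4 (59), which are among these 12. The start used for Hoxc4 lies 15459 bp from its RefSeq start, and that for Hoxb3 is the first of 4 annotated starts. Their counts therefore hold for the windows used. Members of a cluster share regions and neighbouring windows overlap, so they are not independent points.

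The labels of the sorted cells were read against marker genes of the gonad. All 5 genes of the early gonad (Nr5a1, Wt1, Gata4, Lhx9 and Emx2) had H3K4me3 in all 4 lists and H3K27me3 in both progenitor lists, and none had H3K27me3 in pregranulosa cells. In Sertoli cells Lhx9 had 4001 bp of H3K27me3, Emx2 had 525 bp and the other members of the list had 0 bp. None of the 5 genes of the Sertoli cell (Sox9, Dmrt1, Dhh, Amh and Ptgds) had H3K27me3 in Sertoli cells. Sox9, Dmrt1 and Dhh had it in the other lists, Amh had 725 bp in pregranulosa cells and 0 bp in both progenitor lists, and Ptgds had it in no list and had H3K4me3 in Sertoli cells alone. All 4 genes of the pregranulosa cell (Foxl2, Wnt4, Rspo1 and Fst) had 4001 bp of H3K27me3 in both progenitor lists and in Sertoli cells. In pregranulosa cells Wnt4 and Rspo1 had 0 bp, Fst had 1284 bp, and Foxl2, the defining factor of granulosa cells, had 4001 bp. The study reported that the start and body of Foxl2, a small gene in an H3K27me3-dense locus, lose the mark in these cells. It stated that a window of this size does not show that loss. Of the markers of other cell types, Pecam1 of endothelium, Ptprc of blood and Ddx4 of germ cells had no mark in any list. In the order used above, H3K4me3 was called at 1, 1, 2 and 1 of 3 germ cell genes, at 0, 0, 0 and 1 of 2 endothelial genes and at 1, 3, 2 and 2 of 3 Leydig cell genes. The part of other cell types in the Hox results was not tested.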

How the data were processed

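Gonadal cells of 4 populations were profiled by native ChIP-seq for H3, H3K4me3 and H3K27me3. Per the labels, the authors used Trim Galore, Bowtie, SAMtools and HOMER on mm9 (versions not given in the sources used here). Per the headers of 6 lists, peaks were called with H3 as input, at 4 times the input, in sizes of 1000 bp (H3K4me3) or 5000 bp (H3K27me3). The 4 progenitor headers name joined tags of the replicates. The deposited score column held the same value in every row and was not used, so the positions that the authors deposited were the measurement. The pregranulosa lists had no header, and their depth and settings are unknown. Their H3K27me3 list held 12609 peaks with none overlapping (median 8910 bp), where the others held 36469 to 74154 overlapping peaks, so only joined regions were compared. Depth in the other lists ran from 6470151 to 49254553 tags, and no interval was computed, since the lists hold no counts.

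Overlapping peaks were joined, and covered bases were counted in windows of 2 kb on either side of the 5′ end of GENCODE M1 genes (NCBIM37, the build of the lists) and along clusters from the first to the last member. Hoxa3 had 2 gene models, and the longer was used. The steps rebuilt 100% of 500 simulated regions and gave the cover of bedtools 2.31.1 in 100% of 1000 intervals (Python 3.11.15, matplotlib 3.10.9). Named by rule were all members, genes inside the clusters with a symbol of their own, the nearest coding genes outside, TALE genes (1 is not reported here), ParaHox genes and cell type markers. Promoter and microRNA sequences are those of RefSeq (GRCm38.p6 table), placed on mm9 by exact match. Members and lists were chosen with earlier results of these data known. Alternatives changed the overlap, window, start site, joining of peaks and regions kept.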

Additional observations from a re-analysis of the deposited data

Results flagged for a closer look

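From E10.5 to E13.5 the H3K4me3 cover of 9 members moved in opposite directions in the sexes and the H3K27me3 cover of 0 did. Hoxa13 is given because it was the 1 member of the 9 with a change of at least 500 bp in both sexes, a bound set with the values known. It was 931 bp larger in Sertoli than in XY progenitor cells, at 1932 and 1001 bp, and the difference of pregranulosa minus XX progenitor cells was -858 bp, at 1890 and 2748 bp. The difference between the sexes was not tested, since each value comes from 1 list. The XY progenitor list had 10162534 H3K4me3 tags and the XX progenitor list 49254553, and the part of depth was not tested.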

How the results depend on the processing

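Of 472 values recomputed under alternatives, 429 lay within 1.5 times the reported value and 43 did not. The counts of members with H3K27me3 lay within it in all 40 cases. Each alternative below is set beside the reported count, and the cause of a shift was not tested unless the construction states it.

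With most of the window required, 14, 19, 20 and 20 members were bivalent in XY progenitor, XX progenitor, Sertoli and pregranulosa cells (24, 23, 33 and 32 reported), so that the counts of XX progenitor and pregranulosa cells then differed by 1, and H3K4me3 marked 20 in Sertoli and 22 in pregranulosa cells (33 and 35). H3K27me3 was then in XX progenitor cells alone at 2 members and in XY alone at 1 (0 and 2). H3K4me3 was in XX and not XY progenitor cells at 5 (1), in XY progenitor and not Sertoli cells at 10 (4), in pregranulosa and not XX progenitor cells at 0 (1), and in XX progenitor and not pregranulosa cells at 12 (3). With 500 bp required, the last of these was 5.

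With windows of 1 kb on either side, H3K27me3 was in XX progenitor cells alone at 1 member and in XY alone at 1. H3K4me3 was in XX and not XY progenitor cells at 0 and the reverse at 1 (0), in XY progenitor and not Sertoli cells at 7, in XX progenitor and not pregranulosa cells at 5, and in Sertoli and not pregranulosa cells at 3 (1).

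With the widest 75% of regions, H3K27me3 was in XY progenitor cells alone at 1 member. H3K4me3 was in XX and not XY progenitor cells at 3, in Sertoli and not XY progenitor cells at 3 (1) and the reverse at 7, in XX progenitor and not pregranulosa cells at 5, in Sertoli and not pregranulosa cells at 3 and the reverse at 6 (3). With lists reduced to equal covered bases, H3K4me3 was in XX and not XY progenitor cells at 0 and the reverse at 2, in Sertoli and not XY progenitor cells at 0 and the reverse at 9, in pregranulosa and not XX progenitor cells at 0 and the reverse at 6, and in Sertoli and not pregranulosa cells at 4 and the reverse at 5. With an equal number of regions, it was in Sertoli and not pregranulosa cells at 2.

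With any annotated transcript start, H3K4me3 was in XY progenitor and not Sertoli cells at 2 members. With RefSeq starts for the 22 members that had one, an alternative chosen after seeing the data, H3K27me3 was in XX progenitor cells alone at 1. With H3K4me3 peaks within 5 kb joined, which fills the spaces between islands, Hoxa held 48802 bp in Sertoli and 63349 bp in pregranulosa cells (27423 and 32280), Hoxb held 62052 bp in Sertoli cells (37165), Hoxc 54170 bp in Sertoli cells (34888), and Hoxd 77619 and 82348 bp (46979 and 50112).

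No paired analysis was possible because there is 1 list for each mark and population. For the same reason no replicate was left out. Depth differed between lists and is unknown for pregranulosa cells, and its part in these values was not tested.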
